A study of Mus musculus with 6 samples.

Results

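The 10 genes described here encode receptors and ligands of the interleukin-4 (IL-4), IL-7, IL-10 and IL-17 cytokine systems, taken by symbol out of 54309 genes in RNA-seq of mouse sciatic nerve. Of these, 7 encode receptor chains (Il4ra, Il13ra1, Il10ra, Il10rb, Il17ra, Il2rg and Il7r) and 3 encode ligands (Il10, Il7 and Tslp). The genes were chosen by symbol, but with measured values of these same libraries known, namely their read counts, TPM levels and the sex difference of Il7r, so their levels and the counts over them are descriptions. The series holds 6 libraries of distal left sciatic nerve from C57BL/6 mice aged 6 to 8 weeks, 3 from females and 3 from males, each made from pooled tissue of 2 animals taken 24 h after surgery. The treatment label of all 6 libraries is axotomy, the cutting of the nerve, whereas the written procedure has the nerve exposed with no transection. The labels do not settle which applies, and both sexes carry the same label. Unoperated nerves were not analysed here. The question the design asks is how the RNA of female and male nerves differs after this surgery.

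These cytokines tell phagocytes, lymphocytes and stromal cells what to do in a damaged tissue. IL-4 and IL-13 signal through IL-4 receptor alpha, paired either with the common gamma chain (Il2rg) or with Il13ra1, and activate STAT6, a route known for reparative macrophage states. IL-7 signals through Il7r with the common gamma chain, and thymic stromal lymphopoietin (Tslp) through Il7r with Crlf2. IL-10 restrains macrophages through Il10ra and Il10rb, and IL-17 cytokines act on stromal and epithelial cells through Il17ra with partners such as Il17rc. In bulk tissue a difference in RNA per cell and a difference in the number of cells that hold the RNA cannot be told apart.

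For Il4ra and Il17ra the RNA was assigned mostly to transcripts that do not encode the full receptor, so the sequences where these transcripts part are shown before the levels. They were read from the GENCODE M21 transcripts (GRCm38), in which all 33 annotated transcripts of the 10 genes had the same name and length as in the deposited tables. Transcript Il4ra-201 encodes the membrane receptor, while Il4ra-205 holds an extra exon of 114 bases at chr7:125571934-125572047 (plus strand), which carries a stop codon after 17 coding bases. The 45 bases in lower case are the end of the exon before it, chr7:125571546-125571590. The 20 capitals are, for Il4ra-205, the extra exon up to and with that stop codon (chr7:125571934-125571953) and, for Il4ra-201, the first bases of the next exon (chr7:125572851-125572870).
Il4ra-205: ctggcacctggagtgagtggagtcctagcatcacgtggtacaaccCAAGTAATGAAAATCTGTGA
Il4ra-201: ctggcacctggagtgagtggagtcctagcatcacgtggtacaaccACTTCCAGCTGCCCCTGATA
Mice are known to make a secreted IL-4 receptor from a transcript with an extra exon that ends the coding frame before the membrane-spanning part. The annotation lists Il4ra-205 as a target of nonsense-mediated decay, the pathway that degrades RNA with an early stop codon.

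In Il17ra the transcripts part after an exon that ends at chr6:120477480 (plus strand). Il17ra-201, the full-length coding transcript, goes on with a short exon of 12 bases at chr6:120478164-120478175, in capitals, and then with the exon that starts at chr6:120478375. Il17ra-203, annotated as a retained-intron transcript, reads on into the intron, whose first 45 bases (chr6:120477481-120477525) are in capitals. The lower-case bases before the capitals are chr6:120477436-120477480 in both.
Il17ra-201: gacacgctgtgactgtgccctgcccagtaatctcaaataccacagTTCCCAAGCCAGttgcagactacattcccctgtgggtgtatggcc
Il17ra-203: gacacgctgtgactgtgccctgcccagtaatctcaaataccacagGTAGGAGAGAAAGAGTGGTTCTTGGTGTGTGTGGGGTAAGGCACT

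The 6 libraries had between 55272138 and 77610593 estimated reads. Levels set between libraries are given in CPM, the reads of a gene scaled to the total of its library after adjustment by the trimmed mean of M-values (TMM). The 3 reads that a count of 0 still allows amount to 0.0543 CPM or less before that adjustment, by counting error alone. Female 2 and male 1 stood apart by skeletal muscle transcripts: 7 muscle markers summed to 1405 and 760 CPM there, against 5.01 to 21.6 CPM in the other 4 libraries. Female 2 also had the highest sum of 6 adipocyte markers, 906 against 266 to 531 CPM. Schwann cell markers (6 genes) had sums of 7232 to 11405 CPM in female and 15475 to 20447 CPM in male nerves. For nerve fibroblasts and perineurial cells (6 genes) the sums were 4035 to 4878 against 5735 to 6622 CPM. The keratinocyte markers Krt5 and Krt14 stood at 10.2 and 17.8 CPM in female 1 and at no more than 0.0436 CPM elsewhere. Krt10, also on that list, was not raised there, at 1.67 CPM in female 1 and 1.50 to 2.21 CPM elsewhere. A filter on low counts kept 19129 genes, of which the edgeR quasi-likelihood test called 21 at an adjusted p under 0.05: 3 with more RNA in females and 18 with more in males.

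All 10 genes had reads in all 6 libraries, and receptor RNA summed over all transcripts was far more abundant than ligand RNA. In TPM, a unit that accounts for transcript length and so allows genes to be compared, and summed over all transcripts of a gene, Il4ra was highest at 145 ± 17.5 TPM (mean ± SD, n = 6 libraries). The others, in order of their mean level, were Il10rb at 109.9 ± 10.8 TPM, Il13ra1 at 61.9 ± 7.67 TPM, Il2rg at 61.8 ± 15.2 TPM, Il17ra at 35.9 ± 4.59 TPM, Il10ra at 30.6 ± 7.33 TPM and Il7r at 16.7 ± 7.78 TPM. The ligand genes closed the order, with Il10 at 2.32 ± 0.572 TPM, Tslp at 1.60 ± 0.473 TPM and Il7 at 1.17 ± 0.209 TPM. Among the kept genes Il4ra lay at percentile 94.8 of mean TPM and Il7 at percentile 23.8. This order depends on the transcripts counted. With coding transcripts only, Il4ra at 35.3 TPM lay below Il10rb (98.9), Il13ra1 (61.9) and Il2rg (57.3). Il17ra at 4.17 TPM then lay below Il10ra (28.6) and Il7r (14.0), as the receptor gene nearest to Il10 (2.32). Coding Tslp (0.0656) lay below coding Il7 (1.15).

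Gaps without overlap were found in 3 places of this order: every library had Il10rb above the highest level of Il13ra1, Il2rg above the highest level of Il17ra, and Il7r above the highest level of Il10. Elsewhere in the order, the ranges of neighbours over the libraries overlapped. The lowest Il4ra level, 117 TPM in male 1, lay below the highest Il10rb level, 131 TPM in female 2. Within each single library, however, Il4ra was above Il10rb, Il10ra above Il7r and Il10 above Tslp. Il13ra1 and Il2rg had nearly the same mean, and their ratio ran from 0.712 in female 2 to 1.28 in female 3.

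**Figure D1:**
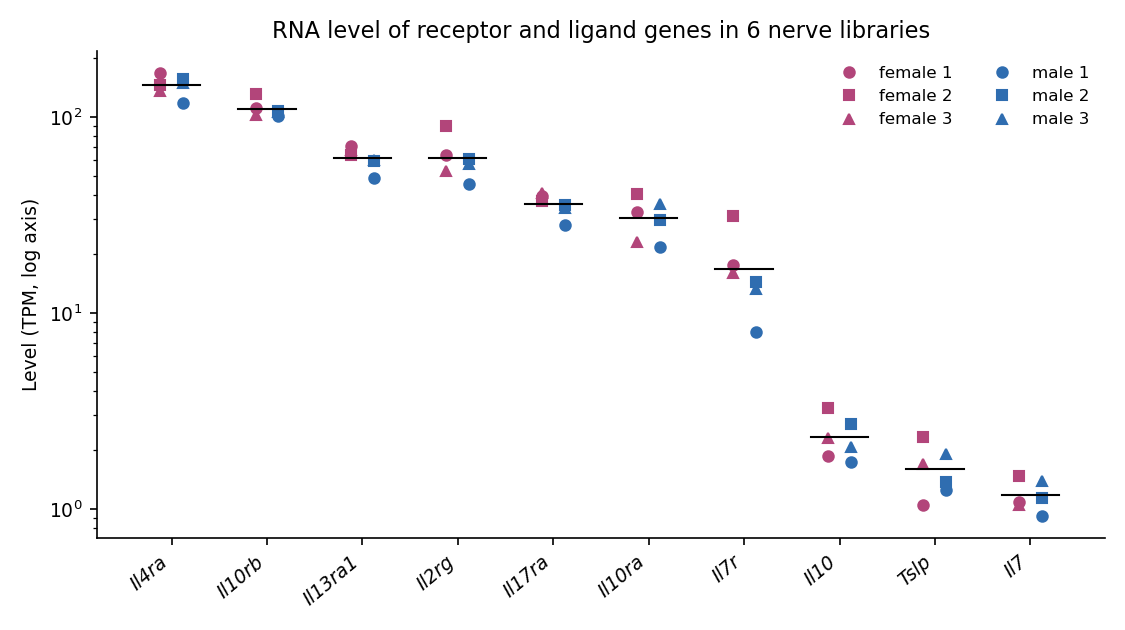
RNA level of the 10 genes (x axis) in TPM on a log axis; points are single libraries (pink female, blue male; circle, square and triangle for replicates 1, 2 and 3) and black lines the mean over 6 libraries. Over all transcripts, the 7 receptor genes have means of 16.7 TPM or more and the 3 ligand genes means of 2.32 TPM or less. Il7r and Il10 do not overlap.

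The partner chains of each receptor stood at different levels. Summed over all transcripts, Il4ra exceeded Il13ra1 by a TPM ratio of 2.00 to 2.63 and Il2rg by 1.63 to 2.63 over the 6 libraries. With coding transcripts only, an alternative chosen after seeing the data, both ratios turned over, to 0.509 to 0.641 and 0.393 to 0.786. Il10rb, which also serves the IL-22 and interferon lambda receptors, exceeded Il10ra by 2.96 to 4.66. Il17ra exceeded its partner Il17rc by 1.51 to 2.18 over all transcripts, but with coding transcripts only the ratio was 0.184 to 0.285. Il7r was the lower chain in both of its receptors: Il2rg exceeded it by 2.89 to 5.69, and its ratio to Crlf2, the TSLP receptor chain, was 0.248 to 0.733. Il7r was also at 8.67 to 21.3 times the level of its ligand gene Il7, and Il10ra at 10.1 to 17.7 times that of Il10.

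Most Il4ra RNA was assigned to the transcript with the early stop codon. Il4ra-205, the transcript with the extra exon, took 63.3%, 65.0% and 64.6% of Il4ra TPM in females 1 to 3, against 72.8%, 68.2% and 65.8% in males 1 to 3. Its share was thus lower in each female library than in each male library, narrowly between female 2 and male 3. No test was made of it. The TPM shares of some transcripts of Il2rg, Il7r and Il7, and of another of Il4ra, also did not overlap between the sexes. Such a separation was thus not particular to Il4ra-205, and how often it occurs over all transcripts was not computed. The coding transcript Il4ra-201 took 22.0% to 25.8% of Il4ra TPM, and Il4ra-204, which retains an intron, 3.06% in male 1 and 8.79% to 12.2% elsewhere. By reads, Il4ra-205 took 60.9% to 67.7%, with an exact (Clopper-Pearson) 95% interval at most 1.29 percentage points wide in any library. This interval covers counting error alone and leaves out the error of dividing reads among transcripts. The transcripts differ in more than the exon: Il4ra-205 ends 1507 bases before Il4ra-201, and none of its bases is found in it alone, so the share of the extra exon itself was not measured. Restricted to transcripts annotated as coding, Il4ra stood at 35.3 TPM in place of 145.

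Il17ra and Tslp RNA was also assigned mostly to other transcripts than the coding one. Il17ra-203, with the retained intron, took 52.0% to 68.7% of Il17ra TPM, the short Il17ra-202 19.6% to 37.1%, and the full-length Il17ra-201 10.8% to 12.9%. Il17ra-203 shares 3922 bases with Il17ra-201 and ends 3830 bases before it, so here too the estimate rests on the 3′ end as well as on the intron. Coding transcripts alone gave Il17ra a mean of 4.17 TPM. For Tslp, the coding transcript Tslp-201 was assigned no read in females 1 and 3 and male 2, and 3, 5 and 4 reads in female 2, male 1 and male 3. The other Tslp reads, 35 to 62 a library, went to Tslp-202, annotated as a retained-intron transcript, which shares 929 bases with Tslp-201. Where none was assigned, 3 reads would be 8.57% of Tslp reads in female 1, 5.45% in female 3 and 8.11% in male 2. The share in male 1 was 11.1% (exact 95% interval 3.71% to 24.1%, for counting error alone). The coding Tslp transcript averaged 0.0656 TPM.

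The other genes were read mainly as coding RNA. Il10 and Il13ra1 have a single annotated transcript each. Il10ra-201 took 90.6% to 94.8% of Il10ra TPM, Il10rb-201 87.0% to 93.9% of Il10rb, Il2rg-201 84.2% to 90.3% of Il2rg and Il7r-201 75.0% to 91.3% of Il7r. Il7 reads were few, and a coding transcript held 56.8% to 78.8% of Il7 TPM beside 4 other transcripts. Of the 15 transcripts of these genes that are not annotated as coding, male 1 had the lowest TPM share of 9, among them Il4ra-204, Il10rb-204 and Il17ra-202. It had the highest share of 2, the abundant Il4ra-205 and Il17ra-203. Over all genes male 1 also had the smallest share of reads on retained-intron transcripts, 3.05% against 3.30% to 3.64% in the other libraries, and the part of this in the shares of single genes was not tested.

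**Figure D2:**
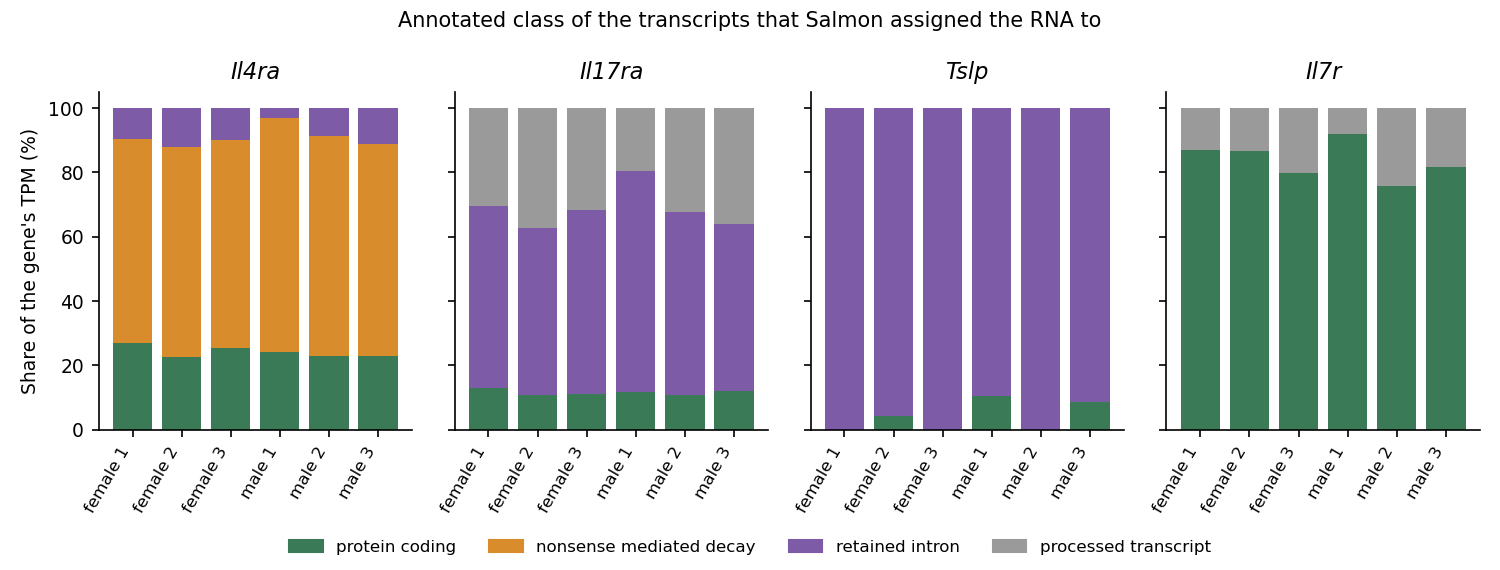
Share of each gene's TPM (y axis, %) by annotated transcript class in the 6 libraries (x axis) for Il4ra, Il17ra, Tslp and Il7r. Most Il4ra RNA was assigned to the nonsense-mediated decay transcript and most Il17ra and Tslp RNA to retained-intron transcripts in every library, while Il7r RNA was assigned mostly to coding transcripts.

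Between the sexes, all 10 genes had a higher mean in female than in male nerves, and none passed the threshold. The edgeR quasi-likelihood test called 0 of 10 at an adjusted p under 0.05, where 0.110% of all genes tested were called in either direction, 0.0157% as higher in females and 0.0941% as higher in males. At an unadjusted p under 0.05 it gave 3 of 10, all higher in females, against 5.82% of all genes in that direction and 14.6% in both. A log2 fold change (female minus male) above 0 was found for 10 of 10 genes and for 53.6% of all genes, with a median of 0.16 over the 10 and 0.016 over all. Every female library lay above every male library for 3 of the 10 genes, Il7r, Il13ra1 and Il17ra, and for 9.65% of all genes. Adjusted p over the 10 genes ran from 0.224 to 0.902 by edgeR. The direction rested on 1 library for several of them: without female 2, 5 of the 10 were above 0, and female 2 held the highest value of 7 of the 10 while male 1 held the lowest of 6.

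**Figure D3:**
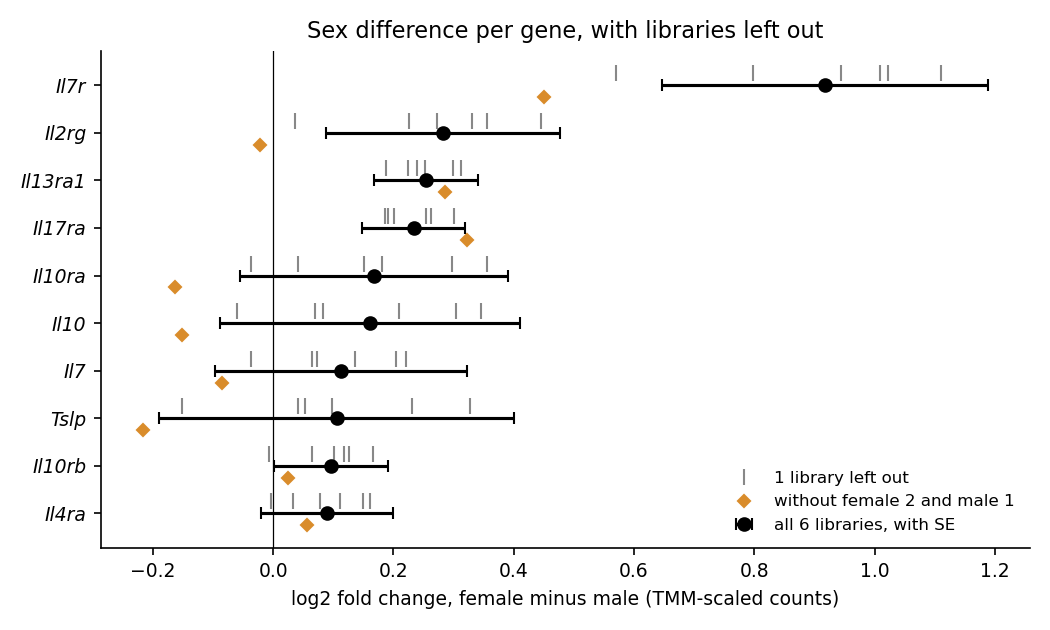
Log2 fold change, female minus male (x axis), of each gene (y axis): black points with SE for all 6 libraries, grey ticks with 1 library left out, orange diamonds without female 2 and male 1. Il7r, Il13ra1 and Il17ra stay above 0 in all of these fits, and Il10ra, Il10, Il7, Tslp and Il2rg lie below 0 without female 2 and male 1.

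Il7r, the chain that binds IL-7, had the widest range of the 10 genes for its level, with the highest library at 3.27 times the lowest in CPM. It also had the largest fold difference between the sexes. In TMM-scaled CPM, as above, females 1 to 3 had 28.6, 46.9 and 23.5 CPM of it and males 1 to 3 had 14.3, 19.9 and 18.2 CPM. Female 2 was high and male 1 low, and the sexes did not overlap. The means were 33.0 ± 12.3 CPM in females and 17.5 ± 2.87 CPM in males (SD, n = 3 each), a 1.89-fold difference (log2 fold change 0.92, SE 0.27, edgeR adjusted p 0.224). DESeq2 called Il7r (adjusted p 0.00894), as it did 1.41% of its tested genes as higher in females. The log2 fold change was 0.57 without female 2 and 0.45 without female 2 and male 1, and edgeR's adjusted p was 0.110 to 0.510 over its own alternative fits that left out 1 library. As this difference was known when the genes were picked, it is no independent observation.

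Il13ra1 and Il17ra showed smaller differences that varied less between libraries. Il13ra1, an X-linked gene for the second chain of the IL-4 and IL-13 receptor, was at 131, 109 and 121 CPM in females 1 to 3, against 96.3, 107 and 99.2 CPM in males 1 to 3. All females lay above all males, although female 2 and male 2 were close. Its log2 fold change was 0.25 (SE 0.09, edgeR adjusted p 0.252) and ran from 0.19 to 0.31 over the alternatives. Il17ra, the shared chain of the IL-17 receptors, had 110.0, 94.5 and 111 CPM in the female libraries, against 91.6, 93.2 and 83.9 CPM. Here too the sexes did not overlap, and female 2 was the lowest female library. The log2 fold change was 0.23 (SE 0.09, edgeR adjusted p 0.281), with 0.19 to 0.32 over the alternatives.

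The common gamma chain and the IL-10 receptor differed more within a sex than between the sexes. Il2rg, also X-linked, had 55.8, 78.4 and 45.6 CPM in females 1 to 3, against 44.9, 54.2 and 48.7 CPM in males 1 to 3. The sexes overlapped, female 2 was far above the rest, and the log2 fold change of 0.28 (SE 0.19) became 0.04 without female 2. Il10ra, the IL-10 binding chain, had 83.6, 103 and 59.1 CPM in the female libraries, against 58.8, 74.2 and 85.6 CPM in the male ones. Male 3 exceeded females 1 and 3, and the log2 fold change was 0.17 (SE 0.22), or -0.04 without female 2. Il10rb ranged over 118 to 148 CPM in females against 117 to 127 CPM in males, and Il4ra over 380 to 467 against 356 to 429 CPM. Their log2 fold changes were 0.10 (SE 0.09) and 0.09 (SE 0.11), the smallest among the receptor genes.

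**Figure D4:**
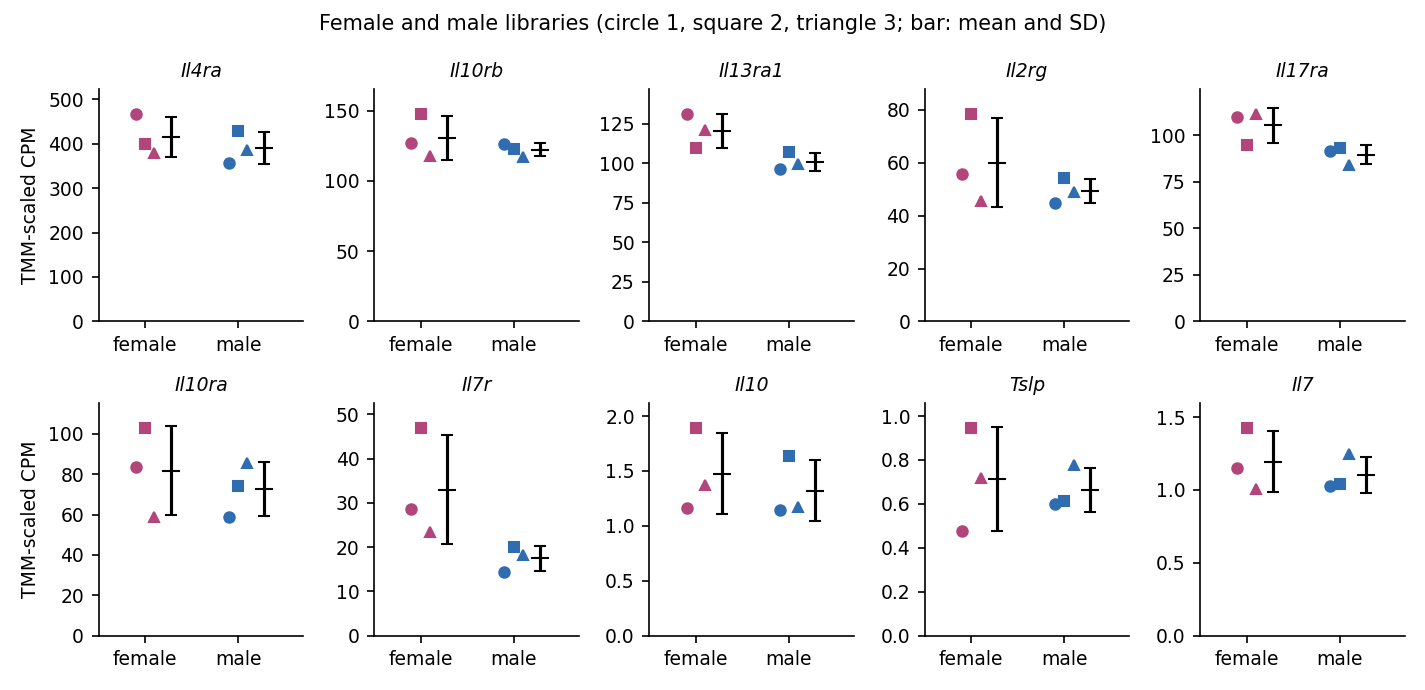
TMM-scaled CPM (y axis, from 0) of each gene in female (pink) and male (blue) libraries, 1 panel per gene; bars give the mean and SD of 3 libraries. Il7r, Il13ra1 and Il17ra do not overlap between the sexes, and female 2 (pink square) is the highest library for 7 genes.

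The 3 ligand genes had few reads, 35 to 130 a library, all above the 3 reads that a count of 0 allows. Il10, the anti-inflammatory cytokine, had 86, 130 and 105 reads in the female libraries, against 86, 99 and 65 in the male ones, or 1.48 ± 0.372 and 1.32 ± 0.277 CPM. Il7, a lymphocyte survival factor made by stromal cells, had 77 to 98 reads in females and 63 to 77 in males, or 1.19 ± 0.212 and 1.11 ± 0.124 CPM. Tslp, an epithelial and stromal cytokine, had 35 to 65 reads in females and 37 to 45 in males, or 0.713 ± 0.235 and 0.663 ± 0.0996 CPM. The sexes overlapped for all 3, with log2 fold changes of 0.16 (SE 0.25), 0.11 (SE 0.21) and 0.11 (SE 0.30). Female 1, the library with Krt5 and Krt14, had the lowest Tslp level, 0.475 CPM, and female 2 the highest, 0.945 CPM.

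Markers of the cells known to carry these receptors varied between the libraries. A sum of 7 monocyte and macrophage markers was 1906, 2370 and 1542 CPM in females 1 to 3, against 1322, 1962 and 1741 CPM in males 1 to 3, with its extremes in female 2 and male 1, as for Il7r, Il2rg and Il10ra. Of these 7 markers 6 had a log2 fold change above 0 and 0 were called by edgeR. Set against that sum, a measure chosen after the values were seen, Il10ra was at 3.83% to 4.39% in females and 3.78% to 4.91% in males, and Il2rg at 2.93% to 3.31% and 2.76% to 3.40%, both overlapping. Il7r was at 1.50%, 1.98% and 1.52% of the sum in females 1 to 3 and at 1.08%, 1.02% and 1.04% in males 1 to 3, without overlap. The sexes overlapped for all other genes described, among them Il13ra1 (4.62% to 7.82% in females, 5.47% to 7.29% in males). For Il17ra the ranges were 3.99% to 7.23% and 4.75% to 6.93%. The share of all genes without overlap on this measure was not computed. T cell markers (9 genes, none at 0) had lower sums in females, 7.00 to 9.06 CPM, than in males, 9.87 to 15.6 CPM. B cell markers (5 genes) had 30.0 to 34.5 against 37.4 to 48.2 CPM. The list for innate lymphoid cells of type 2 (5 genes, 1 with a log2 fold change above 0) gave 70.7 to 126 CPM in females, against 61.9 to 70.6 CPM in males, mostly from Il1rl1 (41.8 to 106 CPM), while its factor Gata3 was at 0.157 to 0.579 CPM. Of 5 dendritic cell markers, Cd209a was called by edgeR (adjusted p 0.0163), at 7.16 to 8.90 CPM in females and 17.2 to 22.7 CPM in males, while the sum of the 5 overlapped at 58.6 to 64.8 and 61.9 to 72.3 CPM. The part of these cells in the receptor differences was not tested.

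**Figure D5:**
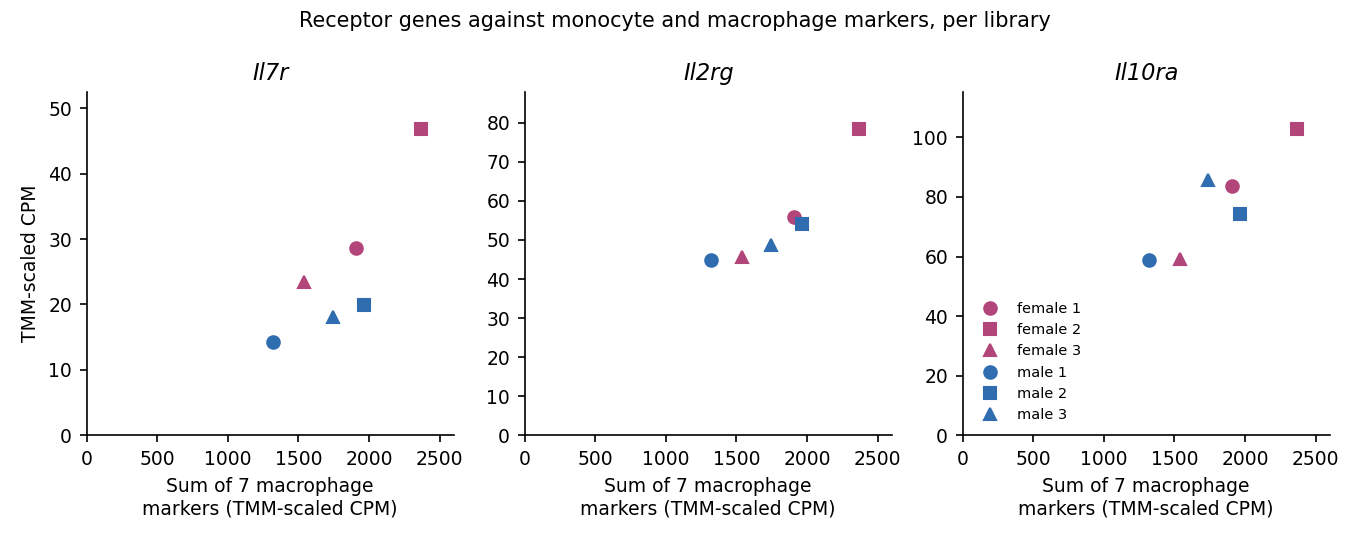
TMM-scaled CPM of Il7r, Il2rg and Il10ra (y axes) against the sum of 7 monocyte and macrophage markers (x axis, TMM-scaled CPM), 1 point per library. Female 2 is at the upper right and male 1 at the lower left in all 3 panels, and for Il7r female 1 (1906 CPM of markers) lies above male 2 (1962 CPM of markers).

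By likeness of pattern over the 6 libraries, measured as the root mean square difference of centred log2 CPM among 14753 genes, the genes nearest to Il10ra were C1qb (0.06), a complement gene of macrophages, Apobec3 (0.06) and Sp110 (0.07). Those nearest to Il7r were Doc2b (0.13), Ms4a14 (0.13) and Gm20056 (0.13), and no gene lay within 0.1 of it. For Tslp, compared with 14754 genes, they were Rai2 (0.06), Ccdc171 (0.07) and Scin (0.08). In all, 17 genes lay within 0.1 of Il10ra and 13 within 0.1 of Tslp. Such counts were larger for genes that varied little, so they do not set Il7r apart. The SD of log2 CPM was 0.60 for Il7r, 0.32 for Il10ra and 0.33 for Tslp, while 1314 genes lay within 0.1 of Il10rb (SD 0.12). Tslp had only 35 to 65 reads a library, so counting error enters its pattern.

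The other genes of these systems were taken from 4 lists of ligands, receptors, signalling proteins and targets, 75 genes beside the 10. Of these, 60 were kept by the filter, 0 were called by edgeR in either direction, 34 had a log2 fold change above 0, and the median was 0.027. Every female library lay above every male library for 6 of the 60, against 9.65% of all genes. The reverse held for 7 of the 60, against 11.5% of all genes. In the IL-4 and IL-13 list (17 of 18 kept, median 0.05), Il4 had 17 to 39 reads a library and Il13 had at most 1. The decoy receptor Il13ra2 averaged 2.65 ± 1.45 CPM in females against 1.39 ± 0.213 CPM in males. Among genes known to respond to IL-4 in macrophages, Arg1, which breaks down arginine, was at 624 TPM on average and Mrc1, the mannose receptor, at 146 TPM. Chil3, a chitinase-like protein gene with near-identical relatives, had 502, 358 and 343 CPM in females 1 to 3, against 208, 228 and 161 CPM in males 1 to 3. Retnla, a resistin-like secreted protein gene, lay the other way, at 8.03, 12.3 and 9.05 against 16.4, 22.6 and 44.2 CPM. Neither pair of groups overlapped, and the log2 fold changes were 1.01 (SE 0.18, edgeR adjusted p 0.127) and -1.50 (SE 0.39, edgeR adjusted p 0.194).

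In the IL-7, TSLP and common gamma chain list (15 of 18 kept, median 0.16), Il2 had no read in any library and Il9 and Il21 had at most 4 and 1. Of this list's ligands only Il15, which supports NK cells, passed the filter, with 9.59 ± 0.930 CPM in females against 8.11 ± 0.134 CPM in males. Crlf2 averaged 35.8 TPM and Il15ra 21.0 TPM, and the survival gene Mcl1 312 TPM. Il2rb, a receptor chain of T and NK cells, had 5.22 ± 0.886 CPM in females against 8.92 ± 2.19 CPM in males (log2 fold change -0.77, SE 0.20, edgeR adjusted p 0.171), a direction shared with the T cell markers. Cish, a feedback inhibitor of STAT5, had a log2 fold change of -0.49 (SE 0.20).

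In the IL-10 family list (14 of 21 kept, median 0.08), Il20, Ifnl2 and Ifnl3 had no read in any library, and Il22 and Il24 had at most 2 and 1. This list also holds Il4ra, counted above, as a known IL-10 target. Hmox1, the heme-degrading enzyme, averaged 429 TPM, Il1rn, the IL-1 receptor antagonist, 169.7 TPM and Socs3, an inhibitor of STAT3 signalling, 167 TPM. Hmox1 had 551, 455 and 508 CPM in females 1 to 3, against 327, 298 and 322 CPM in males 1 to 3, with no overlap, a log2 fold change of 0.68 (SE 0.09) and the smallest edgeR adjusted p of all 4 lists, 0.0729. Without the low-count filter edgeR called it (adjusted p 0.00331). Ifnlr1, the interferon lambda receptor, had a log2 fold change of 0.67 (SE 0.34).

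In the IL-17 list (19 of 23 kept, median -0.028), the cytokine Il17a had 1 read in all, in female 3, and Il17f had 11 to 18 reads in females and 2 to 7 in males (log2 fold change 1.31, SE 0.45, edgeR adjusted p 0.254). Il17b had the most reads among the ligands, 212 to 341 a library. Il17rb, the IL-25 receptor chain, had 3.00 ± 0.679 CPM in females against 5.34 ± 1.14 CPM in males (log2 fold change -0.83, SE 0.21, edgeR adjusted p 0.171), without overlap, and Il17rc was at 16.5 CPM in both sexes. The neutrophil-attracting chemokine genes Cxcl5 and Cxcl2, known targets of IL-17, averaged 387 and 304 TPM and the transcription factor gene Cebpb 111 TPM. Their log2 fold changes were 0.10 (SE 0.57), 0.59 (SE 0.73) and 0.02 (SE 0.16), and Cxcl2 alone ranged from 29.7 to 197 CPM within the male libraries. DESeq2 called 5 genes of the 4 lists, Hmox1, Chil3, Retnla, Il2rb and Il17rb, where it called 5.28% of all genes it tested in either direction.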

How the data were processed

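RNA of 6 libraries was sequenced after poly-A selection with a stranded kit, per the labels' protocols. Trimmomatic 0.39, Salmon 1.5.2 and MultiQC 1.9 were used, per the submitters' processing notes. The genome build, annotation release and use of strand were not given in the sources used here. For each of 140789 transcripts the authors deposited, per the file headers, an estimated count (not normalized) and a TPM value. Salmon divides reads among similar transcripts by an estimate, which bears on transcript shares and on near-identical genes.

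Estimated counts and TPM were summed per gene over its transcripts, and counts were rounded. filterByExpr kept 19129 genes, among them all 10 described. Libraries were scaled by TMM and the sexes compared with edgeR 4.0.16 (quasi-likelihood, robust, no covariate), with Benjamini-Hochberg adjustment over all kept genes and a threshold of 0.05. The SE was derived from the fold change and its F statistic. DESeq2 1.42.0 and limma 3.58.1 served as alternatives. The 10 genes and the lists were chosen with earlier results of these data known. Named genes were the 10, the 3 most abundant ligand, receptor or target genes and the 2 of smallest p in each list, called genes, unread ligands, and for genes with an SD of log2 CPM of at least 0.3 the 3 most similar patterns at a mean CPM of at least 1; other genes were named after their values were seen. The marker lists of neutrophils (649 to 1625), mast cells (56.3 to 126) and endothelial cells (269 to 390.0), were also summed per library. Each library is a separate pool of animals, and no pair of libraries of 1 sex agreed within sampling noise (chi-square per degree of freedom at least 26.3).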

Additional observations from a re-analysis of the deposited data

How the results depend on the processing

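The number of genes called by edgeR as higher in female and in male nerves, 3 and 18, was 44 and 147 without a low-count filter, 0 and 3 with the replicate block, and 233 and 638 with DESeq2. Limma-voom called 7 as higher in females, and the fit without female 2 and male 1 called 6. With 1 library left out these counts ran from 0 to 17 and from 4 to 188. The deviations of same-numbered libraries correlated at -0.10, -0.19 and 0.01. These values show no pairing by replicate number, but with 3 libraries of each sex they cannot exclude one. The block changed no call among the 10 genes, none of which was called without it.

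Of the 10 genes, 1 (Il7r, log2 fold change 0.92) was called by DESeq2, and 0 in every other fit. The number with a log2 fold change above 0 was 5 to 10 with 1 library left out and 5 without female 2 and male 1. With 1 library left out, the log2 fold change ran from -0.060 to 0.35 for Il10, from -0.036 to 0.36 for Il10ra, from -0.0063 to 0.17 for Il10rb, from -0.038 to 0.22 for Il7 and from -0.15 to 0.33 for Tslp, each lowest without female 2. For Il4ra it ran from -0.0034, without female 1, to 0.16. Without female 2 and male 1 it was -0.15 for Il10, -0.16 for Il10ra, -0.022 for Il2rg, -0.084 for Il7 and -0.22 for Tslp. The cause was not tested.

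DESeq2 called 1 gene of the IL-10 family list, 1 of the IL-17 list, 2 of the IL-4 and IL-13 list and 1 of the IL-7 list. Without a filter edgeR called 1 of the IL-10 family list, and without female 2 and male 1 it called 1 of the IL-4 and IL-13 list, Clec10a (log2 fold change -0.88). With coding transcripts only, mean TPM was 35.3 for Il4ra, 98.9 for Il10rb, 4.17 for Il17ra and 0.0656 for Tslp, by the removal of the other transcripts; the mean ratio of Il4ra to Il13ra1 then went from 2.36 to 0.569, of Il4ra to Il2rg from 2.43 to 0.638 and of Il17ra to Il17rc from 1.95 to 0.234, while 6 other ratios moved by less than 1 SD. Using TMM-scaled TPM or leaving out 1 library moved no mean TPM by more than 1 SD. A minimum mean of 1 CPM left no value for Tslp. Depth limits the ligand genes, with at most 130 reads a library.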
